A study of Mus musculus with 281 samples.

Results

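The tpMo and preNeu cells are the lineage-committed end of a single-cell series on the granulocyte-monocyte progenitors of mouse bone marrow. The cell type given in the labels decided membership: 31 cells carried the label tpMo and 31 the label preNeu, together 62 of the 281 cells in the series. All came from C57BL/6 mice, an inbred laboratory strain, with no genetic change or treatment named in the labels. The tpMo gate took cells without lineage markers or c-Kit that carried CD115, CXCR4 and Ly6C. The preNeu gate took cells without lineage markers, CD115 or SiglecF that carried Gr1, CD11b, c-Kit and CXCR4. The remaining cells carried the labels CMP, Ly6C-GMP, Ly6C+GMP and proneu.

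Each deposited sample is 1 cell, whose RNA was copied along its whole length by SMART-seq2 and sequenced. Its values are in TPM, a share of the cell's transcripts that is corrected for transcript length. No animal, culture or sort day is named, so each label stands for 1 sample. No test was run for that reason, and SDs, ranges and intervals describe the spread over cells of 1 label and not over animals. The difference used throughout is the mean over 31 tpMo cells of log2(TPM + 1) minus the same mean over 31 preNeu cells. It understates the difference of genes with low levels. A gene counted as higher or lower once this difference reached 1 log2 unit, and as detected in a cell from 1 TPM.

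Monocytes and neutrophils share a progenitor in the marrow. Committed monocyte progenitors depend on the transcription factor IRF8 and on signals through CD115, the receptor for macrophage colony-stimulating factor, and they build up lysosomal and antigen-processing proteins. Committed neutrophil precursors still divide while the transcription factor C/EBPε drives the genes of secondary (specific) granules, after the primary (azurophil) granule proteins were made at an earlier stage. Lactoferrin, cathelicidin and lipocalin 2 are proteins of secondary granules, and the S100A8 and S100A9 pair (calprotectin) is the most abundant cytosolic protein of neutrophils.

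The transcripts of the proteins used for sorting are a check of the gates and not a finding. Csf1r, which encodes CD115, was detected in 22 of 31 tpMo cells (71%, exact Clopper-Pearson 95% interval 52 to 85.8%) and in 0 of 31 preNeu cells (interval 0 to 11.2%). Itgam, which encodes CD11b, was detected in 5 tpMo cells and 28 preNeu cells. Ly6c2 reached a median of 9552 TPM in tpMo cells and 2661 TPM in preNeu cells. Ly6g, whose protein is bound by the Gr1 antibody, averaged 28.8 TPM in tpMo cells and 434 TPM in preNeu cells. Kit was detected in 0 tpMo cells and in 6 of the preNeu cells, although c-Kit protein was required in the preNeu gate. Cxcr4 was detected in 26 tpMo cells and 14 preNeu cells, although its mean was 14.5 TPM in tpMo cells and 22.7 TPM in preNeu cells. The levels of Ly6c1, Ly6c2 and other near-identical genes are less certain, because RSEM shares their reads out by estimate.

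The marker genes of each label were higher in that label than in the other. F13a1 encodes the A subunit of coagulation factor XIII (chr13:36867178-37050244, GRCm38, minus strand). It ran from 632 TPM in the lowest tpMo cell through a median of 1840 TPM to 3712 TPM in the highest, and in preNeu cells from 0 through 0.70 to 3.17 TPM. Every tpMo cell thus lay above every preNeu cell, with a mean of 1915 ± 830 TPM in tpMo cells and 0.854 ± 0.818 TPM in preNeu cells (SD, n = 31 cells each). Ms4a6c encodes a membrane protein with 4 predicted spans (chr19:11469366-11482192). Its lowest, median and highest tpMo cells had 16.7, 832 and 2730 TPM, and those of preNeu had 0, 0 and 6.05 TPM. S100a10 encodes the partner protein of annexin A2 (chr3:93555080-93564643). It had 10.6, 637 and 1596 TPM in the lowest, median and highest tpMo cells and was detected in 1 preNeu cell, at 4.34 TPM.

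The neutrophil markers showed the opposite order. Ngp, neutrophilic granule protein (chr9:110419747-110423012, plus strand), had 10.7, 89.6 and 214 TPM in the lowest, median and highest tpMo cells, and 66794, 144678 and 207913 TPM in those of preNeu. In preNeu cells this single gene took 6.68 to 20.8% of all TPM, with a median of 14.5%. Ltf, which encodes lactoferrin (chr9:111019271-111042767), had 0, 11 and 25.6 TPM in tpMo cells and 2401, 15203 and 40135 TPM in preNeu cells, in the same order. No cell of either label lay inside the range of the other for any of the 5 marker genes. Across all measured genes such full separation was found for 0.0739% with tpMo above and 0.0647% with preNeu above.

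**Figure D1:**
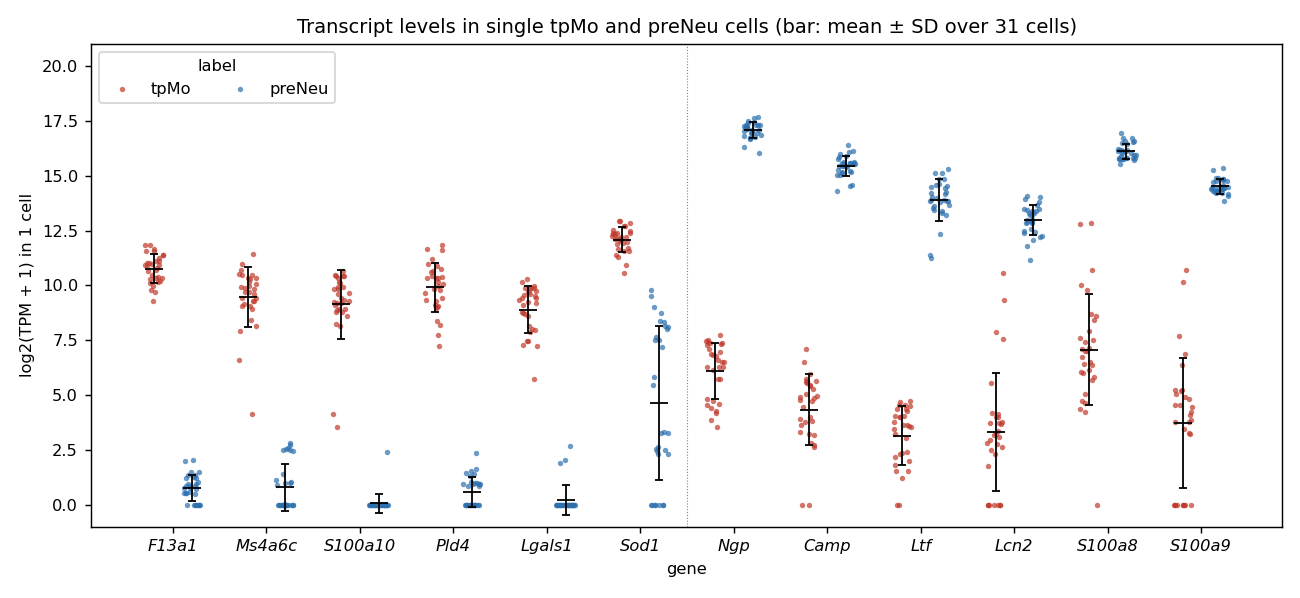
Levels in each of the 31 tpMo cells (red, left of each pair) and 31 preNeu cells (blue, right) of 6 genes higher and 6 genes lower in tpMo, as log2(TPM + 1), with the mean and SD over cells in black. The 2 labels do not overlap for any of the 12 genes, and F13a1 reaches at most 3.17 TPM in a preNeu cell.

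Cells of the 2 labels differed in how many genes were detected and in how concentrated their transcripts were. The lowest, median and highest tpMo cells had 2408, 3082 and 4363 detected genes, and those of preNeu had 1487, 2373 and 3224. The 20 most abundant genes of a cell held 15.5 to 23.7% of the TPM in tpMo cells and 35.3 to 58.3% in preNeu cells, ranges that do not overlap. TPM values are shares of a cell's total, so these abundant transcripts lower all other values of a preNeu cell. Read depth is unknown. The parts of detection and of concentration in each result were not tested, and values are therefore also given for the 18 tpMo and 15 preNeu cells with between 2408 and 3224 detected genes, a restriction chosen after the data were seen. They are called cells of the shared detection range. In the order of the numbers in their titles, the cells formed 24 runs of 1 label, so neither label filled a block of its own.

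**Figure D2:**
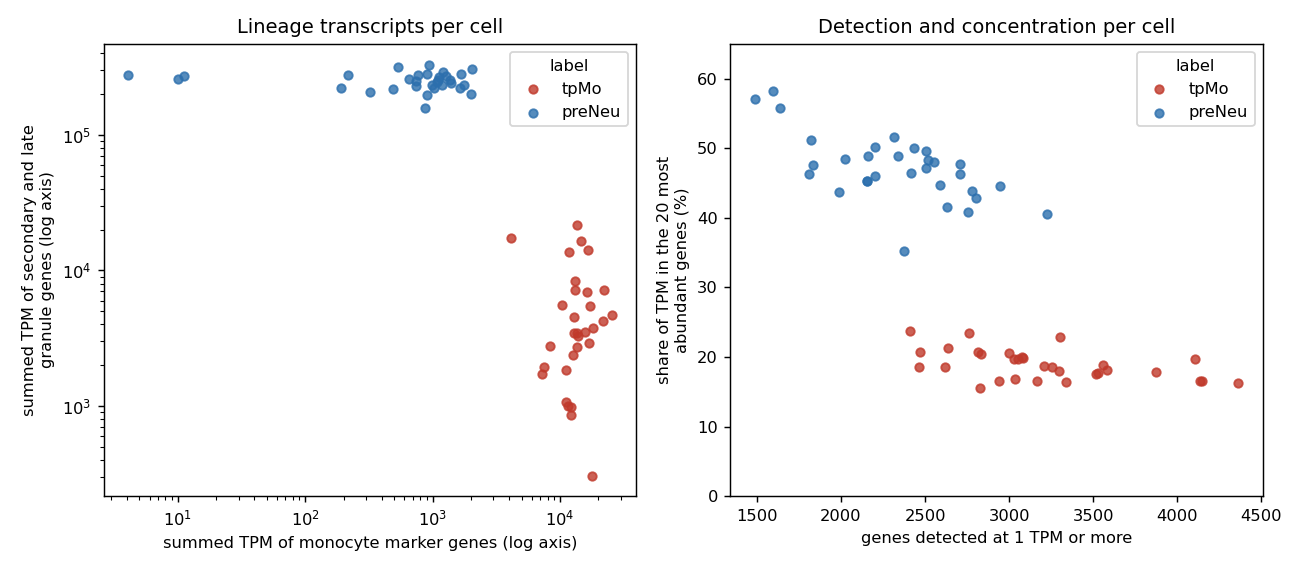
Left, the summed TPM of monocyte marker genes (x axis, log) and of secondary and late granule genes (y axis, log) in each cell. Right, the genes detected at 1 TPM or more (x axis) and the share of TPM in the 20 most abundant genes (y axis, %). tpMo cells are red and preNeu cells blue, and in both panels the 2 labels form separate clouds, with the top-20 share at 15.5 to 23.7% in tpMo cells and 35.3 to 58.3% in preNeu cells.

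Of 10826 genes whose mean reached 1 TPM in tpMo or in preNeu cells, 2848 (26.3%) were at least 1 log2 unit higher in tpMo cells and 490 (4.53%) were at least 1 log2 unit lower. The median over all genes was a difference of 0.36, and 0.63 over the genes whose mean reached 10 TPM in either label. A gene list near these values moved with the bulk of genes. Of the genes called, 85.3% were higher in tpMo. That split was 62.6% higher among cells of the shared detection range, with 2007 of 9786 genes higher (20.5%), 1200 lower (12.3%) and a median of 0.25, and 71.9% when the ratio of mean TPM was used in place of mean logs. Among the 7854 genes whose mean reached 10 TPM, 36% were higher and 6.15% lower. The counts of each gene list below are to be read beside these shares of all genes.

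The ranges of the 2 labels were fully apart for 15 genes. All tpMo cells lay above all preNeu cells for 8 genes (0.0739% of those measured), namely F13a1, Lgals1, Ly6e, Ms4a6c, Pld4, S100a10, Sod1 and the predicted gene Gm26880. All preNeu cells lay above all tpMo cells for 7 genes (0.0647%), namely Camp, Lcn2, Ltf, Ngp, S100a8, S100a9 and Wfdc21. Gm26880 and Sod1 are named because they were in this count.

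**Figure D3:**
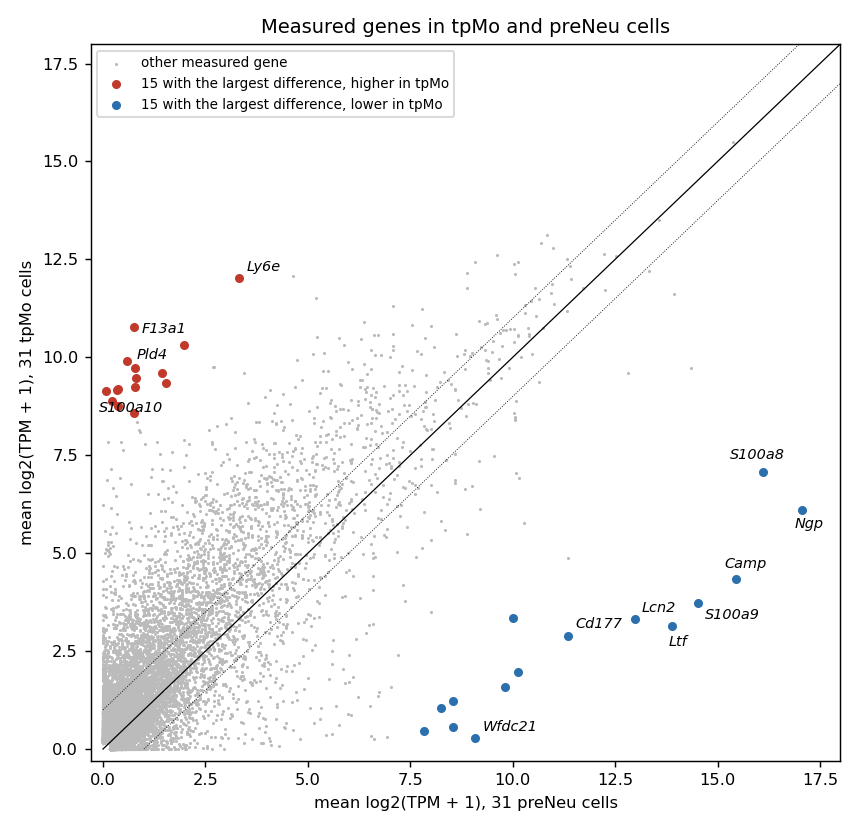
Mean log2(TPM + 1) of each of the 10826 measured genes over 31 preNeu cells (x axis) and over 31 tpMo cells (y axis), with dotted lines at a difference of 1 log2 unit each way. The 15 genes with the largest difference in each direction are coloured, and the most distant are Camp with a difference of -11.10 and F13a1 with 10.

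The genes furthest above their preNeu levels, after F13a1, are given first. Pld4 encodes an exonuclease of endolysosomes that degrades single-stranded nucleic acid (chr12:112760655-112768990). It had 149, 1082 and 3692 TPM in the lowest, median and highest tpMo cells and 0, 0 and 4.15 TPM in those of preNeu. Its difference was 9.32, and all tpMo cells lay above all preNeu cells. Lgals1, which encodes galectin-1, averaged 588 ± 327 TPM in tpMo cells and 0.365 ± 1.19 TPM in preNeu cells. Ly6e encodes a small surface protein anchored by lipid. It had 758, 4332 and 7874 TPM in tpMo cells and 0, 7.32 and 644 TPM in preNeu cells, so its lowest tpMo cell stood above the highest preNeu cell. Its medians were also high in CMP (2113 TPM), Ly6C-GMP (2605 TPM), Ly6C+GMP (2763 TPM) and proneu cells (1088 TPM). Lgals1, Prdx1, Emb and Gm2a were likewise detected in most cells of each of these labels, so a large difference here does not make a gene particular to tpMo. The remaining genes of the 15 largest differences were S100a10 (9.07), Crip1 (8.93), Ctss (8.84), Ifi30 (8.82), Ms4a6c (8.67), Ctsc (8.46), Ccr2 (8.41), Prdx1 (8.33), Emb (8.16), Gm2a (7.81) and Anxa5 (7.79), each a log2 difference. Among them Crip1 encodes a small LIM-domain protein, Prdx1 a peroxide-reducing enzyme, Emb a membrane glycoprotein that escorts transporters, and Gm2a the activator protein for ganglioside breakdown in lysosomes.

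Of 24 monocyte marker genes, 23 were measured, and 21 were higher in tpMo cells (26.3% of all genes were) and 1 was lower. The median difference was 4.95. Among cells of the shared detection range the median was 5.65, again with 21 members higher and 1 lower. Summed over the list, the lowest, median and highest tpMo cells had 4114, 13163 and 25489 TPM, and those of preNeu had 4.06, 944 and 2029 TPM. Most of the preNeu sum came from Lgals3, which encodes galectin-3 and averaged 518 TPM there, and from Plac8 at 233 TPM.

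Ccr2 encodes the chemokine receptor through which monocytes leave the marrow. It had 0.67, 544 and 2049 TPM in the lowest, median and highest tpMo cells and 0, 0 and 2.48 TPM in those of preNeu. It passed 1 TPM in 30 tpMo cells and 4 preNeu cells, and a single tpMo cell lay in the preNeu range. Fn1, which encodes fibronectin, averaged 594 ± 524 TPM in tpMo cells and 0.565 ± 1.07 TPM in preNeu cells. Ly86, whose product pairs with the receptor CD180, was detected in 28 tpMo cells and 2 preNeu cells. Ccl6, a chemokine gene, averaged 548 TPM over tpMo cells and was listed at 0 in every preNeu cell. The member that was lower in tpMo cells was Cd300lf, an inhibitory receptor gene, at 12.2 TPM in tpMo cells and 162 TPM in preNeu cells. Markers of later monocyte stages were sparse: Cx3cr1 was detected in 6 tpMo cells and 0 preNeu cells, Cd14 in 4 and 0 cells, and Ms4a7 was at 0 in all 62 cells.

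Irf8, Klf4, Irf5 and Zeb2, 4 regulators used in the monocyte lineage, were detected mainly in tpMo cells. Irf8 had a median of 279 TPM and a maximum of 955 TPM in tpMo cells, and a median of 0 and a maximum of 10.5 TPM in preNeu cells. It was detected in 28 of 31 tpMo cells (90.3%, exact interval 74.2 to 98%) and in 7 of 31 preNeu cells (22.6%, exact interval 9.59 to 41.1%). Klf4, a Krüppel-like factor of monocytes, was detected at 1 TPM in 25 tpMo cells and 0 preNeu cells, and at 10 TPM in 13 tpMo cells and 0 preNeu cells. Counts of cells depend on this limit, which moved Irf8 to 24 tpMo cells and 1 preNeu cell. Irf5 averaged 420 TPM in tpMo cells and 0.879 TPM in preNeu cells, and Zeb2 averaged 133 TPM in tpMo cells and 0.106 TPM in preNeu cells. Of 14 measured monocyte regulators, 9 were higher (26.3% of all genes were), 2 were lower (4.53% of all genes were) and the median was 2.16. The lower ones were Id2 (-1.36) and Klf6 (-1.08). Spi1 encodes PU.1, a factor both lineages use. It averaged 416 ± 351 TPM in tpMo cells and 352 ± 414 TPM in preNeu cells, with ranges that overlap almost wholly. Egr1, Egr2 and Irf4 were listed at 0 in every cell of both labels.

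Cebpe, which encodes C/EBPε, had the reverse pattern. It was detected in 9 of 31 tpMo cells (29%, exact interval 14.2 to 48%) and 28 of 31 preNeu cells (90.3%, exact interval 74.2 to 98%), with medians of 0 TPM in tpMo cells and 274 TPM in preNeu cells. The ranges overlap, and 13 preNeu cells lay above the highest tpMo cell, at 304 TPM. At 10 TPM or more, Irf8 without Cebpe was found in 22 tpMo cells, Cebpe without Irf8 in 2, both in 2 and neither in 5. In preNeu cells the same counts were 0 with Irf8 alone, 23 with Cebpe alone, 1 with both and 7 with neither. Of the 10 measured neutrophil regulators, Cebpe included, 2 were higher in tpMo cells, 2 were lower (Cebpe at -5.38 and Klf5 at -1.51) and 6 lay within 1 log2 unit. Over all genes 26.3% were higher and 4.53% lower. Cebpa was detected in 7 tpMo cells and 0 preNeu cells. Csf3r, the receptor gene for granulocyte colony-stimulating factor, averaged 71 TPM in tpMo cells and 97.6 TPM in preNeu cells, a difference of -0.94. Gfi1 averaged 0.0310 TPM in tpMo cells and 1.61 TPM in preNeu cells. Among cells of the shared detection range, 2 of 8 regulators were higher, 5 were lower and the median was -1.47, against -0.75 over all cells. There 20.5% of all genes were higher and 12.3% lower.

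Of 20 secondary and late granule genes, 19 were measured, 14 were lower in tpMo cells (4.53% of all genes were) and 1 was higher. The median difference was -6.46, and -7.59 among cells of the shared detection range. Their summed level ran from 308 through 3537 to 21538 TPM over tpMo cells and from 158192 through 253002 to 329562 TPM over preNeu cells. At the median preNeu cell, 25.3% of all TPM came from these 20 genes, and at the median tpMo cell 0.354%. Camp, which encodes cathelicidin (chr9:109847379-109849617), had 0, 26.8 and 134 TPM in the lowest, median and highest tpMo cells and 20403, 46630 and 86656 TPM in those of preNeu. Its difference of -11.10 was the furthest from 0 of any gene named here.

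Lcn2 encodes lipocalin 2, which binds bacterial iron carriers. Its lowest, median and highest tpMo cells had 0, 8.22 and 1500 TPM, and those of preNeu had 2311, 7974 and 17136 TPM. Without its highest cell the tpMo mean of Lcn2 was 43.2 TPM, against 90.2 TPM with it, so that cell carried much of the mean. Pglyrp1 (peptidoglycan recognition) averaged 49.8 TPM in tpMo cells and 1305 TPM in preNeu cells. Cd177, a surface protein of neutrophils, averaged 110 TPM in tpMo cells and 3234 TPM in preNeu cells. The 2 chitinase-like genes differed in their separation. Chil1 averaged 1.08 TPM in tpMo cells and 1176 TPM in preNeu cells, whereas Chil3 averaged 3482 ± 4305 TPM in tpMo cells and 22190 ± 7009 TPM in preNeu cells and was detected in every cell of both labels. Hp, which encodes haptoglobin, likewise averaged 1190 TPM in tpMo cells and 2203 TPM in preNeu cells. Without Chil3 and Hp the list's sum at the median cell was 653 TPM in tpMo cells and 228514 TPM in preNeu cells.

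Wfdc21, which encodes a small secreted protein of the WAP family, was detected in 2 tpMo cells and every preNeu cell, where its lowest, median and highest levels were 144, 506 and 3887 TPM. The remaining genes of the 15 largest differences downward were Adpgk (-8.22), which encodes an ADP-dependent glucokinase, Lrg1 (-7.38), a secreted leucine-rich glycoprotein gene, and the tetraspanin gene Cd9 (-7.20), together with Cd63 and Trem3, which are described with their lists.

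Genes of the latest neutrophil stages were sparse in preNeu cells too. Mmp9, the gelatinase gene, was detected in 1 tpMo cell and 3 preNeu cells, Retnlg in 0 and 3 cells, and Olfm4 in no cell. Cxcr2, the chemokine receptor of mature neutrophils, was detected in 0 tpMo cells and 5 preNeu cells. Mmp8, the neutrophil collagenase gene, was the member that was higher in tpMo cells: it was detected in 13 tpMo cells and 1 preNeu cell, with means of 216 ± 408 TPM in tpMo cells and 13.5 ± 74.9 TPM in preNeu cells.

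Low amounts of the main granule transcripts were present in tpMo cells. At 1 TPM, Ngp was detected in 31 tpMo cells and Camp and Ltf in 29 each. At 10 TPM, Ngp was detected in 31 tpMo cells, Camp in 23 and Ltf in 17. In tpMo cells the mean of Ngp was 2.98 times that of Camp and 8.22 times that of Ltf, and in preNeu cells it was 3.03 times that of Camp and 7.87 times that of Ltf. Each of the 3 genes was lower in tpMo cells by a nearly equal factor, 1544 for Ngp, 1519 for Camp and 1613 for Ltf. The factors of S100a8 and Lcn2 were smaller, at 106 and 98.5. Across the 31 tpMo cells the log2 levels of Ngp and Ltf went together with Pearson's r = 0.87 and Spearman's rho = 0.88. Those of Ngp and Camp did so with r = 0.59 and rho = 0.77. In tpMo cells r was 0.19 for Ngp with Lcn2, -0.12 with S100a8 and 0.10 with Chil3. In preNeu cells r was 0.46 for Ngp with Ltf and -0.18 with Camp. By means the ratios to Lcn2, S100a8 and Chil3 were not alike in the 2 labels. The mean of Ngp was 1.01 times that of Lcn2 in tpMo cells and 15.9 times in preNeu cells. It was 0.133 times that of S100a8 in tpMo cells and 1.94 times in preNeu cells. For Chil3 it was 0.026 times in tpMo cells and 6.36 times in preNeu cells. The tpMo mean of Lcn2, 90.2 TPM, lay far above its median of 8.22 TPM. Lcn2 was detected in 24 tpMo cells at 1 TPM and in 13 at 10 TPM. Its highest and second highest tpMo cells had 1500 and 649 TPM. Medians of Ngp and Lcn2 were 89.6 and 8.22 TPM in tpMo cells, and 144678 and 7974 TPM in preNeu cells. The source of these low levels was not tested. Medians of Ngp elsewhere in the series were 68.3 TPM in proneu cells and 33.4 TPM in the Ly6C+GMP label, and the medians of Ly6C-GMP and CMP cells were 0.

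Promoter sequences are shown for genes at the far ends of the comparison, to set the letters beside the values. RefSeq promoters (GRCm38.p6, 250 bases before to 50 after the gene start) were found for 12 of the 15 genes with the largest difference upward and 13 of the 15 downward. The gene start here is the RefSeq one. It can differ from the GENCODE start of the same gene, as it does for Ngp, Ltf, Lcn2 and F13a1, where it lies inside the GENCODE gene. Both strands were searched for the letters TTGCNNAA (a C/EBP motif), GAGGAAGT (a PU.1 motif) and GAAA, any 2 bases, GAAA (an IRF motif). Of 32851 promoters of all genes, 10.8% held the first, 3.20% the second and 3.44% the third. Among the genes lower in tpMo, the C/EBP letters were in 4 of 13 (Lcn2, Ltf, Ngp and S100a9), the PU.1 letters in 1 (S100a8) and the IRF letters in none. Among the genes higher in tpMo, the PU.1 letters were in 4 of 12 (Ctsc, Ctss, F13a1 and Pld4), the C/EBP letters in 1 (Ifi30) and the IRF letters in 1 (Ctss). The genes were chosen by their levels, and a match is a description of the letters and not a binding site. Of the genes lower in tpMo, Ngp (chr9:110419558-110419857, plus strand) held 2 C/EBP matches, Ltf (chr9:111019042-111019341, plus strand) 1 and Lcn2 (chr2:32387690-32387989, minus strand) 1, in capitals, each printed along the gene's strand.
Ngp: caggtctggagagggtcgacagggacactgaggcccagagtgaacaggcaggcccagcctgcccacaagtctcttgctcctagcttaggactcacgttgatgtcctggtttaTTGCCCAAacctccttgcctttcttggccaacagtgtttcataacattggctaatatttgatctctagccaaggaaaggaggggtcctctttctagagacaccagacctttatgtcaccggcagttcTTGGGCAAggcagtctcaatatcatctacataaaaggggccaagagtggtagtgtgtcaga
Ltf: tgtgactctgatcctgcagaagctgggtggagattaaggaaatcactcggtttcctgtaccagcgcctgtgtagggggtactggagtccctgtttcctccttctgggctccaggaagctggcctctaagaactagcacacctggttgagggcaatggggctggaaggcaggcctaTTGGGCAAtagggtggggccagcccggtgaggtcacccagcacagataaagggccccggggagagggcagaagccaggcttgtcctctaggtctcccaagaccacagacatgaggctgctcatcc
Lcn2: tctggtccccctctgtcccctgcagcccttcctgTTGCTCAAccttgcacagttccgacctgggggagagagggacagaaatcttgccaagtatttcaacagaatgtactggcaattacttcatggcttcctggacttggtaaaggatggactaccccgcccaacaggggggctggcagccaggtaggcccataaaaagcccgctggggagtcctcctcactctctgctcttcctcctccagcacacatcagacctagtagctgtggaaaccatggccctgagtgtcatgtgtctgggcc

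The matches of Ngp started 138 and 11 bases before the gene start, that of Ltf 75 bases before it and that of Lcn2 216 bases before it. Ngp, at the match nearer its start, and Ltf shared the 8 letters TTGGGCAA. Of the genes higher in tpMo, F13a1 (1 of its 2 listed starts, chr13:37049164-37049463, minus strand), Pld4 (chr12:112760405-112760704, plus strand) and Ctss (chr3:95526536-95526835, plus strand) are shown with the PU.1 letters in capitals. In Ctss they are on the opposite strand and read ACTTCCTC.
F13a1: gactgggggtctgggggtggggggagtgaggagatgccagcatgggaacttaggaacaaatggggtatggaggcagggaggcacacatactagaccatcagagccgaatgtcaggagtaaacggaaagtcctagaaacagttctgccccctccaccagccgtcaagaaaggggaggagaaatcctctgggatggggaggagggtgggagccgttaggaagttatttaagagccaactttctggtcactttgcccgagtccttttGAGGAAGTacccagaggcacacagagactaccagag
Pld4: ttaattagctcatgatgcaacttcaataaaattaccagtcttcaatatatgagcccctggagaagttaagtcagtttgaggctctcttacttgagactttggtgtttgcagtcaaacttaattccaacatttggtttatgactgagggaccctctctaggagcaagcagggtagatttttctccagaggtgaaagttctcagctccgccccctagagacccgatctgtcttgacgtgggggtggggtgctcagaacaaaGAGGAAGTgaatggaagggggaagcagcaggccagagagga
Ctss: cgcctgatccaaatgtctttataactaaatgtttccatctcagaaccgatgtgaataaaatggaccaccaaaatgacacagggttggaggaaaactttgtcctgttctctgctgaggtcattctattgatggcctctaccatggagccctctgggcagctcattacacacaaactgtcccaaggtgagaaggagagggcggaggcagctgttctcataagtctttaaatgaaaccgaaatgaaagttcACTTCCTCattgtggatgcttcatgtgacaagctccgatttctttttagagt

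The matches lay at different distances from the gene start. They began 14 bases after the start in F13a1, 9 bases after it in Pld4 and 2 bases before it in Ctss, and that of Ctsc, which is not shown, began 151 bases before it. The levels beside these letters were 1915 TPM in tpMo and 0.854 TPM in preNeu cells for F13a1, 1248 TPM in tpMo and 0.692 TPM in preNeu cells for Pld4, and 1186 TPM in tpMo and 0.416 TPM in preNeu cells for Ctss. Spi1 itself, the gene of PU.1, was detected in 28 tpMo cells and 22 preNeu cells.

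The S100 family was divided between the labels. S100a8 and S100a9, the subunits of calprotectin, together took 0 to 0.876% of TPM in tpMo cells and 6.23 to 17% in preNeu cells. S100a8 had 0, 126 and 7392 TPM in the lowest, median and highest tpMo cells and 47404, 67682 and 127797 TPM in those of preNeu. S100a9 averaged 115 TPM in tpMo cells and 24054 TPM in preNeu cells, with no overlap. In the other direction, S100a10, S100a4 and S100a6 were higher in tpMo cells, S100a4 at 199 TPM in tpMo cells and 0.545 TPM in preNeu cells. S100a1, S100a11 and S100a13 differed by 0.17, -0.18 and 0.20 log2 units, in that order. The annexins, calcium-dependent membrane binders, were divided as well. Anxa5 averaged 1046 ± 707 TPM in tpMo cells and 23.6 ± 61.1 TPM in preNeu cells, and Anxa6 averaged 292 TPM in tpMo cells and 0.205 TPM in preNeu cells. Anxa1 was lower, at 1286 ± 846 TPM in tpMo cells and 8169 ± 3930 TPM in preNeu cells. Anxa2, whose protein binds S100A10, had medians of 1947 TPM in tpMo cells and 936 TPM in preNeu cells and overlapping ranges.

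Lysosomal genes were higher in tpMo cells as a group. Of 19 lysosome and cathepsin genes, 17 were higher (26.3% of all genes were), 1 was lower (4.53% of all genes were) and the median was 3.34. Among cells of the shared detection range 12 were higher, 3 were lower and the median was 1.87. There 20.5% of all genes were higher and 12.3% lower. The list's sum had a lowest, median and highest value of 5753, 12178 and 16283 TPM in tpMo cells and 762, 3614 and 5499 TPM in preNeu cells, ranges that do not overlap. Ctss, a cathepsin of antigen processing, was detected in 30 tpMo cells and 7 preNeu cells. Ctsc, the protease that activates the serine proteases of granules, averaged 843 ± 474 TPM in tpMo cells and 1.22 ± 1.83 TPM in preNeu cells. Psap, the precursor of the saposins, had 213, 3183 and 5727 TPM in the lowest, median and highest tpMo cells and 0, 68.2 and 871 TPM in those of preNeu. Lamp1, a lysosomal membrane protein gene, had medians of 816 TPM in tpMo cells and 1.63 TPM in preNeu cells. Cd63 encodes a tetraspanin of lysosomes and azurophil granules and was the exception, at 23 TPM in tpMo cells and 847 TPM in preNeu cells. Its mean was higher still in proneu (1815 TPM) and Ly6C-GMP cells (1116 TPM), and was 664 TPM in Ly6C+GMP cells.

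Genes of antigen processing and interferon response were higher in more modest numbers. Of 11 genes of MHC class I presentation, 7 were higher and none lower (26.3% and 4.53% of all genes were), with a median of 1.98. Among cells of the shared detection range 6 were higher and 1 lower (20.5% and 12.3% of all genes were), with a median of 1.01. Psmb8, an immunoproteasome subunit gene, averaged 684 ± 428 TPM in tpMo cells and 142 ± 261 TPM in preNeu cells. B2m, the light chain of class I, averaged 2255 ± 748 TPM in tpMo cells and 1760 ± 904 TPM in preNeu cells, a difference of 0.48. H2 genes share near-identical stretches, so their values are less certain. Ifi30, the lysosomal thiol reductase of antigen processing, averaged 1074 ± 732 TPM in tpMo cells and 0.521 ± 1.13 TPM in preNeu cells. Of 16 measured interferon response genes, 9 were higher (56.3%), 2 were lower (12.5%) and the median was 1.24. Among all genes whose mean reached 10 TPM, 36% were higher and 6.15% lower. The list's sum had overlapping ranges, with medians of 2664 TPM in tpMo cells and 2052 TPM in preNeu cells. In sum, 4 preNeu cells lay above the highest tpMo cell and no tpMo cell above the highest preNeu cell. Ifi27l2a was detected in 17 tpMo cells and 0 preNeu cells. Ifitm6 ran the other way, at 317 TPM in tpMo cells and 1503 TPM in preNeu cells, and the classical members Isg15, Ifit1, Ifit3 and Rtp4 were at 0 in all 62 cells.

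**Figure D4:**
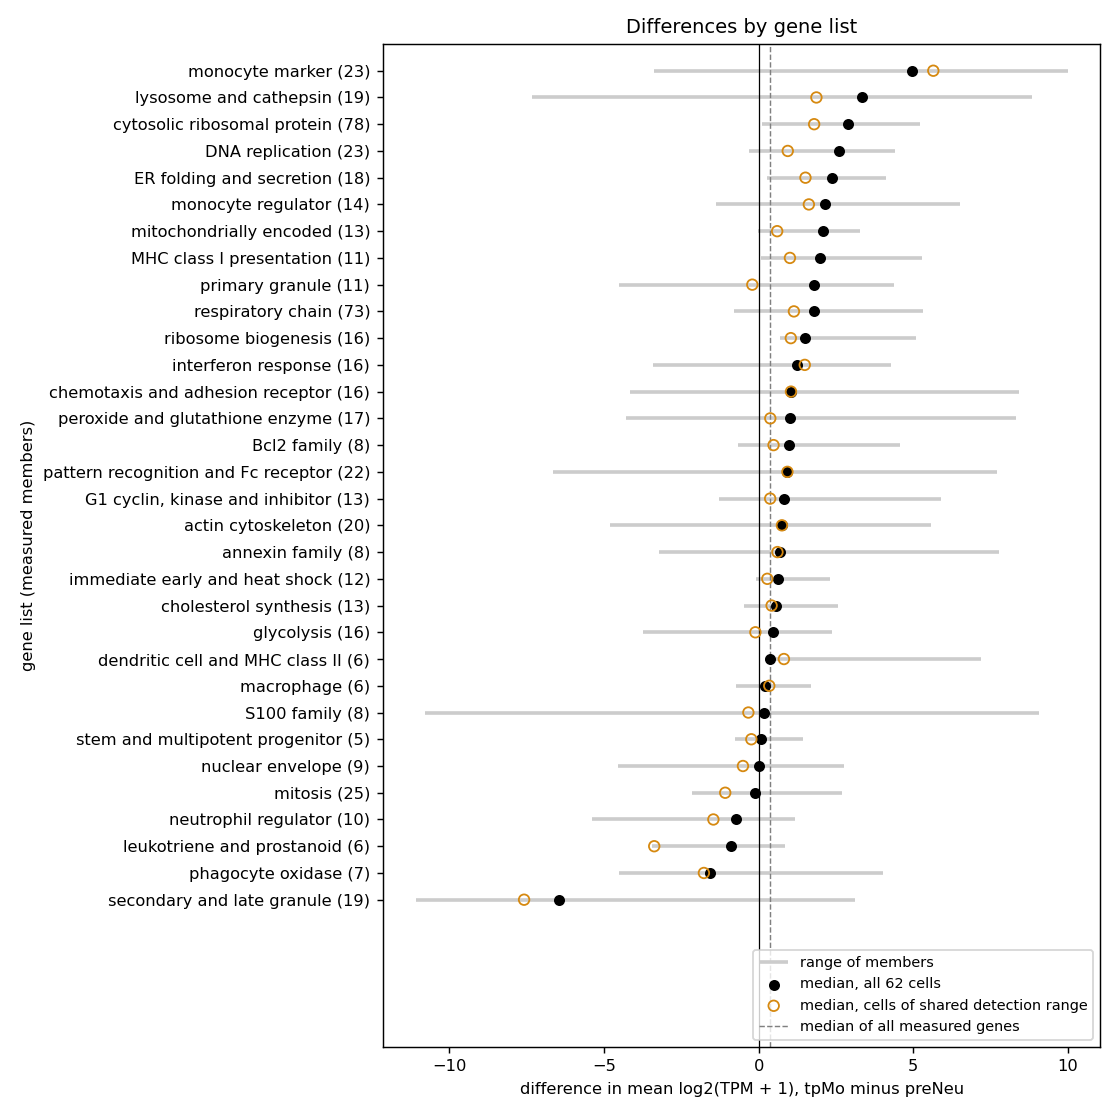
Median difference (tpMo minus preNeu, mean log2(TPM + 1)) of each gene list with 5 or more measured members over all 62 cells (black) and over the 18 tpMo and 15 preNeu cells of the shared detection range (open orange), with the range of its members in grey and the median of all genes, 0.36, as a dashed line. Monocyte marker genes are at 4.95 and secondary and late granule genes at -6.46, and the primary granule list moves past 0, with 1.79 over all cells and -0.21 in the shared range.

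Primary granule genes gave no single direction. Of 11 measured members, 6 were higher in tpMo cells and 3 lower (26.3% and 4.53% of all genes were), with a median of 1.79. Among cells of the shared detection range the median turned to -0.21, with 2 members higher and 5 lower, where 20.5% of all genes were higher and 12.3% lower. Ctsg, which encodes cathepsin G, had 0, 17 and 3259 TPM in the lowest, median and highest tpMo cells and 0, 2.87 and 15.2 TPM in those of preNeu, and 16 tpMo cells lay above the highest preNeu cell. Elane, neutrophil elastase, had medians of 532 TPM in tpMo cells and 28.7 TPM in preNeu cells, and maxima of 25159 TPM in tpMo cells and 17243 TPM in preNeu cells. Mpo, myeloperoxidase, had medians of 66.3 TPM in tpMo cells and 33.3 TPM in preNeu cells. Serpinb1a, an inhibitor of these proteases, averaged 260 ± 360 TPM in tpMo cells and 1499 ± 795 TPM in preNeu cells. Ms4a3 averaged 218 TPM in tpMo cells and 407 TPM in preNeu cells.

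A few tpMo cells held most of the primary granule transcript. Summed over the list, tpMo cells ran from 57.1 through a median of 2043 to 69280 TPM and preNeu cells from 312 through 2352 to 27833 TPM. The 3 highest tpMo cells had 69280, 36758 and 28356 TPM, all above the highest preNeu cell. They also had 4104, 4144 and 4363 detected genes, against a tpMo median of 3082. The highest of them had 882 TPM of F13a1 but 16.7 TPM of Ms4a6c, 0.67 TPM of Ccr2 and 4114 TPM of monocyte marker genes in sum, the lowest of the label. Its Ngp level of 10.7 TPM was the lowest among tpMo cells. Its S100a8 and S100a9 share of 0.876% was the highest, and its secondary and late granule sum of 17387 TPM lay far above the tpMo median of 3537 TPM (3866 TPM without Chil3 and Hp, against a median of 653 TPM). Across the 31 tpMo cells the mean log2 level of primary granule genes went down as that of monocyte marker genes went up, with r = -0.72 and rho = -0.66 (r = -0.59 without the 2 cells farthest from the median in primary granule genes), and went up with the number of detected genes, with r = 0.81 and rho = 0.71. In preNeu cells primary granule genes also went up with detected genes, with r = 0.71 and rho = 0.78. These describe cells of 1 label and share its library preparation and detection.

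Set beside the progenitor labels, Ctsg was low at the median cell of both committed labels. Its median was 17 TPM in tpMo and 2.87 TPM in preNeu cells, whereas the proneu median was 7779 TPM and that of Ly6C+GMP 5185 TPM. F13a1 had a median of 1840 TPM in tpMo and 0.70 TPM in preNeu cells, with proneu at 2.71 TPM and Ly6C+GMP at 341 TPM. Irf8 had a median of 279 TPM in tpMo and 0 TPM in preNeu cells, with proneu at 0 TPM and Ly6C+GMP at 344 TPM.

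The oxidase and lipid mediator genes leaned towards preNeu cells. Of 7 subunit genes of the phagocyte oxidase, 2 were higher in tpMo cells and 4 lower, with a median of -1.56. Over all genes 26.3% were higher and 4.53% lower. Ncf1, which encodes p47phox, averaged 89.6 ± 143 TPM in tpMo cells and 572 ± 432 TPM in preNeu cells. Cybb, the catalytic subunit, had medians of 495 TPM in tpMo cells and 1120 TPM in preNeu cells with overlapping ranges. Rac1 was higher, at 544 TPM in tpMo cells and 121 TPM in preNeu cells, while Rac2 was lower, at 550 TPM in tpMo cells and 1190 TPM in preNeu cells. Of 6 measured leukotriene and prostanoid genes, none was higher and 3 were lower (26.3% and 4.53% of all genes were), with a median of -0.88. In the shared range 5 were measured and 3 lower (12.3% of all genes were), with a median of -3.38. These medians depend on which genes count as measured: without the filter on low values the median over all cells was 0.12 for 7 genes. Lta4h, which makes leukotriene B4, averaged 371 ± 329 TPM in tpMo cells and 1456 ± 940 TPM in preNeu cells. Alox5, the first enzyme of the pathway, was detected in 6 tpMo cells and 17 preNeu cells. Ltb4r1, the receptor of leukotriene B4, averaged 313 TPM in tpMo cells and 650 TPM in preNeu cells.

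Receptors of migration and recognition differed by member. Of 16 chemotaxis and adhesion receptor genes, 8 were higher (50%), 3 were lower (18.75%) and the median was 1.06. Among all genes whose mean reached 10 TPM, 36% were higher and 6.15% lower. Selplg, a selectin ligand, averaged 991 ± 506 TPM in tpMo cells and 84.7 ± 172 TPM in preNeu cells. Itgb7, an integrin subunit, was detected in 27 tpMo cells and 0 preNeu cells. C5ar1, the complement C5a receptor, was detected in 3 tpMo cells and 20 preNeu cells. Of 22 measured pattern recognition and Fc receptor genes, 9 were higher (40.9%, near that 36%) and 5 lower (22.7%). Trem3 was the lowest of them, at 143 TPM in tpMo cells and 1467 TPM in preNeu cells, and the signalling adaptors Tyrobp (0.79) and Fcer1g (0.86) lay within 1 log2 unit.

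Redox enzymes contained some of the most separated genes. Sod1, the cytosolic superoxide dismutase, had 1507, 4615 and 7873 TPM in the lowest, median and highest tpMo cells and 0, 8.84 and 886 TPM in those of preNeu, with no overlap. Prdx1 averaged 1413 ± 698 TPM in tpMo cells and 47.4 ± 118 TPM in preNeu cells. Of 17 measured peroxide and glutathione genes, 9 were higher and 2 lower (26.3% and 4.53% of all genes were), with a median of 1.00. Among cells of the shared detection range 6 were higher and 2 lower (20.5% and 12.3% of all genes were), with a median of 0.38. The lower ones over all cells were Mgst2 (-4.28) and Prdx5 (-1.20).

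Replication and mitosis genes behaved differently from each other. Of 23 DNA replication genes, 20 were higher in tpMo cells and none lower (26.3% and 4.53% of all genes were), with a median of 2.60. Among cells of the shared detection range 11 were higher and 2 lower (20.5% and 12.3% of all genes were), with a median of 0.94. Mcm6, a subunit of the replicative helicase, averaged 511 ± 424 TPM in tpMo cells and 137 ± 289 TPM in preNeu cells. Pcna, the sliding clamp, had medians of 659 TPM in tpMo cells and 2.62 TPM in preNeu cells, and its difference was 3.84 over all cells and 1.2 in the shared range. Of 25 mitosis genes, 5 were higher (20%), 3 were lower (12%) and the median was -0.12, or 0.13 with the ratio of mean TPM. In the shared range 1 was higher, 13 were lower and the median was -1.08, where 12.3% of all genes were lower. Ube2c, which encodes an enzyme of mitotic exit, was detected in 19 tpMo cells and 25 preNeu cells, with a difference of -2.16. Top2a was detected in 28 cells of each label, at 492 ± 488 TPM in tpMo cells and 454 ± 317 TPM in preNeu cells.

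The mitosis sum at the lowest, median and highest cells was 233, 5006 and 25808 TPM in tpMo cells and 7.26, 6450 and 12760 TPM in preNeu cells. The replication sum was 429, 7447 and 13345 TPM in tpMo cells and 15.2, 2072 and 7333 TPM in preNeu cells. Within tpMo cells replication and mitosis genes went in opposite directions, with r = -0.65 and rho = -0.62 over 31 cells. Within preNeu cells they did not go together (r = 0.05, rho = -0.08), while mitosis genes went up with the number of detected genes (r = 0.79, rho = 0.71). Cdk4, the kinase of G1 entry, averaged 686 ± 666 TPM in tpMo cells and 22.8 ± 61.5 TPM in preNeu cells, and its difference of 5.91 was 3.53 in the shared range.

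**Figure D5:**
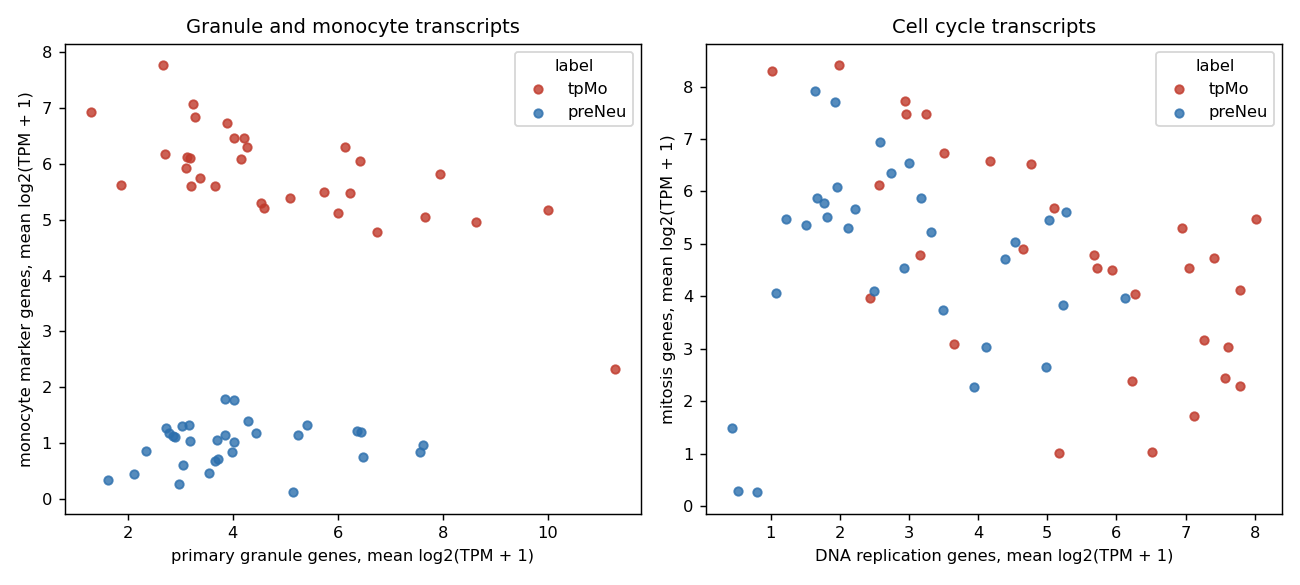
Mean log2(TPM + 1) over the genes of a list in each tpMo cell (red) and preNeu cell (blue): primary granule (x axis) and monocyte marker genes (y axis) on the left, DNA replication (x axis) and mitosis genes (y axis) on the right. The tpMo cells run downward in both panels, with r = -0.72 on the left and r = -0.65 on the right, and the tpMo cell at the far right of the left panel is the cell with 69280 TPM of primary granule genes.

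The machinery of protein synthesis and respiration stood higher in tpMo cells. Of 78 measured cytosolic ribosomal protein genes, 75 were higher and none lower (26.3% and 4.53% of all genes were), with a median of 2.90. In the shared range 66 were higher and 1 lower (20.5% and 12.3% of all genes were). The median there was 1.79. Their sum at the median cell was 39353 TPM in tpMo cells and 10568 TPM in preNeu cells. Rescaling cells after removal of their most abundant genes left 72 of 78 higher, with a median of 2.48. Of 16 measured ribosome biogenesis genes, 13 were higher and none lower (26.3% and 4.53% of all genes were), with a median of 1.49. In the shared range 9 of 15 were higher and none lower (20.5% and 12.3% of all genes were), with a median of 1.04. Npm1, nucleophosmin, averaged 846 ± 551 TPM in tpMo cells and 115 ± 181 TPM in preNeu cells. Of 18 genes of folding and secretion in the endoplasmic reticulum, 15 were higher and none lower, with a median of 2.37 and of 1.51 in the shared range.

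Of 73 measured respiratory chain genes of the nucleus, 57 were higher and none lower (26.3% and 4.53% of all genes were). Their median was 1.78. In the shared range 40 were higher and 3 lower (20.5% and 12.3% of all genes were), with a median of 1.14. The 13 mitochondrially encoded genes had 8 higher, none lower and a median of 2.08, beside the 26.3% and 4.53% of all genes. In the shared range they had 5 higher, none lower and a median of 0.60, beside 20.5% and 12.3% of all genes. Their sum at the median cell was 33778 TPM in tpMo cells and 14537 TPM in preNeu cells. Of 16 glycolysis genes, 6 were higher (37.5%) and 2 lower (12.5%), the former near the 36% of genes whose mean reached 10 TPM. The median was 0.46 over all cells and -0.11 in the shared range. There 3 were higher and 6 lower, beside 20.5% and 12.3% of all genes. Slc2a3, a glucose transporter gene, was detected in 1 tpMo cell and 18 preNeu cells, and Gpi1 averaged 504 TPM in tpMo cells and 1432 TPM in preNeu cells.

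Among abundant genes, 3 are named after their values were seen. Lyz2, which encodes lysozyme M, averaged 55045 ± 26539 TPM in tpMo cells and 46321 ± 18862 TPM in preNeu cells, a difference of 0.10 with overlapping ranges. Hmgn2, a nucleosome-binding protein gene, averaged 3471 ± 1437 TPM in tpMo cells and 16558 ± 4681 TPM in preNeu cells, of which 29 lay above the highest tpMo cell. Ftl1, the ferritin light chain, averaged 7971 ± 1986 TPM in tpMo cells and 2014 ± 1286 TPM in preNeu cells, and 29 tpMo cells lay above the highest preNeu cell.

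Nuclear envelope genes differed by member, with some of the linker proteins of the nuclear membrane detected mainly in preNeu cells. Syne1 was detected in 1 tpMo cell and 24 preNeu cells, with means of 5.11 TPM in tpMo cells and 93.3 TPM in preNeu cells. Sun2 was detected in 5 tpMo cells and 17 preNeu cells. Sun1 had the reverse order, with 10 tpMo cells and 2 preNeu cells. The list as a whole had 3 higher and 3 lower of 9 measured genes. Of 20 actin cytoskeleton genes, 8 were higher (40%, near the 36% of genes whose mean reached 10 TPM), 2 were lower and the median was 0.77. Of 13 measured genes of G1 cyclins, kinases and inhibitors, 6 were higher and 1 lower, and the median was 0.82 over all cells and 0.37 in the shared range. Of 8 measured genes of the Bcl2 family, which governs cell death, 4 were higher and none lower. Cholesterol synthesis had 3 of 13 measured genes higher, immediate early and heat shock genes had 4 of 12, and neither had one lower. The shares of the cholesterol synthesis list (23.1% higher) and the immediate early and heat shock list (33.3% higher) are near those of all genes, 26.3% higher and 4.53% lower. Shares further from these were 46.2% higher in the G1 list, 50% higher in the Bcl2 family and 33.3% lower in the nuclear envelope list, each over few genes.

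Many markers of other cell types were at 0 in all 62 cells. Of 8 eosinophil genes, Prg2, Epx, Il5ra and Ccr3 were at 0 in all 62 cells, and the list's sum ran from 0 to 2343 TPM in tpMo cells and 0 to 927 TPM in preNeu cells, nearly all of it Ear2, a ribonuclease gene. Of 10 basophil and mast cell genes, 8 were at 0 in every cell. Hdc, the histidine decarboxylase gene, was the main exception, at 12 TPM in tpMo cells and 312 TPM in preNeu cells, and the list's sum ran from 0 to 164 TPM in tpMo cells and 0 to 2370 TPM in preNeu cells. Of 14 erythroid and megakaryocyte genes, 3 were measured, all globins, with a sum of at most 149 TPM in a tpMo cell and 130 TPM in a preNeu cell.

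Of 16 dendritic cell and MHC class II genes, 6 were measured and 2 were higher in tpMo cells. H2-DMa was detected in 29 tpMo cells and 9 preNeu cells, with means of 504 TPM in tpMo cells and 28.6 TPM in preNeu cells. H2-Aa, H2-Eb1, Siglech, Cd209a and Itgax were at 0 in all cells, and Cd74 was detected in 2 tpMo cells and 0 preNeu cells. The list's sum ran from 0 to 1953 TPM in tpMo cells and 0 to 645 TPM in preNeu cells. Of 11 macrophage genes, 6 were measured, C1qb was at 0 in all cells, and the sum ran from 0 to 727 TPM in tpMo cells and 0 to 287 TPM in preNeu cells. Among 13 lymphoid genes, Cd3e and Cd79a were at 0 in every cell. Ighm, the immunoglobulin mu chain gene, averaged 1030 ± 859 TPM in tpMo cells and 291 ± 391 TPM in preNeu cells, and the sum ran from 2.50 to 3840 TPM in tpMo cells and 0 to 1339 TPM in preNeu cells. Its difference of 4.69 was 2.63 in the shared detection range. Of 12 stem and multipotent progenitor genes, 5 were measured and 1 was higher, and the sum ran from 0 to 601 TPM in tpMo cells and 0 to 274 TPM in preNeu cells.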

How the data were processed

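The authors deposited 1 table of TPM values for 43280 gene symbols in single cells, made with RSEM 1.2.19 on the build GRCm38 per the submitters' processing notes. No source used here names the aligner, the annotation or any filter. Per the labels' protocols, RNA from a picopure buffer was amplified by SMART-seq2 with a changed lysis buffer, and libraries from a reduced Nextera XT reaction were read as pairs on an Illumina HiSeq. There are no molecular identifiers and no strand marking, so overlapping and antisense genes share reads that cannot be separated, and depth is unknown. Gene positions came from GENCODE M21 (GRCm38), which holds 39469 of the symbols (91.2%). The cell type in the labels set the groups.

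From the deposited TPM, the difference of mean log2(TPM + 1) was computed over 10826 genes whose mean reached 1 TPM in tpMo or in preNeu cells, with Python 3.11.15, pandas 2.3.3, numpy 2.4.6, scipy 1.17.1 and matplotlib 3.10.9. Only the computation of the difference was run on simulated cells with a known added change, and the other computations were not tested in this way. Intervals on shares of cells are 95% exact Clopper-Pearson intervals and cover counting error only. No cell was left out, no 2 cells had identical values, and doublets were not called. The members and the 37 gene lists were chosen with earlier results of these data known. Genes named were the 15 with the largest difference each way (mean of at least 50 TPM, detected in at least 50% of the cells of the higher label, ratio of means in the same direction, no predicted or ribosomal protein genes), up to 4 members per list with the largest difference and at least 5 TPM, the 5 markers and the gate genes. Other list members were picked for their role with their values known. Adgre1 and Adgrg1 were found under the older symbols Emr1 and Gpr56. Alternatives were pseudocounts of 10 and 0.1 TPM, other filters on low values, the ratio of mean TPM, scaling by median ratios (314 genes seen in 90% or more of the cells), rescaling without the most abundant genes, and leaving out cells.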

Additional observations from a re-analysis of the deposited data

How the results depend on the processing

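The counts of 2848 genes higher and 490 lower in tpMo depended on the scale. They were 1471 and 227 with a pseudocount of 10 TPM, 3983 and 783 with one of 0.1 TPM, and 4935 and 1925 with the ratio of mean TPM, where the median over all genes was 0.80. With a mean of at least 10 TPM the median was 0.63. Among cells of the shared detection range 1200 genes were lower; there the primary granule median (-0.21), Mad2l1 (-0.17) and Junb (-0.11) turned round from 1.79, 2.09 and 1.16. Leaving out the most extreme cell of each label, 20 genes had all tpMo cells above all preNeu cells. Median-ratio scaling moved the median of all genes to 0.28. Over all alternatives, 400 medians of gene lists moved by less than the spread between cells, 40 moved by more and 1 turned round. For differences of named genes these counts were 1754, 80 and 2. A change of sign was counted as turned round only where the main value was at least 1 log2 unit from 0. Smaller values changed sign too, such as the glycolysis median (0.46, and -0.11 in the shared range) and Cxcr4 (0.78, and -0.61 with the ratio of mean TPM). Counting cells at 10 TPM in place of 1 TPM moved 86 counts of detected cells beyond their interval and left 222 within it. Ngp, Camp, Ltf, S100a8 and S100a9 have no value in the rescaling, which removes them. The causes were not tested. No paired analysis was possible because the labels give no replicate numbers. With 1 sample per label, no cell-to-cell spread here speaks to differences between mice, and depth cannot be known from TPM.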
